A study of Mus musculus with 5 samples.

Results

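The glucocorticoid response was followed through the lineages of the mouse heart in 8 of the 31053 genes of the deposited tables, chosen by symbol. They were Nr3c1, the glucocorticoid receptor, and its known targets Tsc22d3, Fkbp5, Sgk1, Zbtb16, Klf9, Mt1 and Mt2. They were proposed with results of these data in view, among them a rise of Tsc22d3 in endothelial cells, so that rise is given as a description and supports nothing by itself. Hearts came from control mice (Ctla4+/+ Pdcd1-/-, 4 mice, 2 libraries, replicates 1 and 2) and from disease mice (Ctla4+/- Pdcd1-/-, 10 mice, 3 libraries, replicates 3, 4 and 5), a model of the myocarditis that immune checkpoint inhibitors can cause. Both groups lacked Pdcd1, which encodes the checkpoint receptor PD-1, and they differed in 1 copy of Ctla4, which encodes CTLA-4. The age, sex and strain of the mice are not given in the sources used here. Digested hearts were pooled before nucleated live cells were sorted, so the libraries and not the mice are the replicates, and nothing in the sources says which mice went into which library. Some sample labels number the deleted gene and the nuclear dye differently from the design text, which gives Pdcd1 and DRAQ5 for all libraries and was followed.

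The glucocorticoid receptor rests in the cytoplasm with heat shock protein chaperones, moves to the nucleus when corticosterone or a synthetic steroid binds it, and there activates genes that carry its palindromic response element. Tsc22d3 (also called Gilz) encodes a leucine zipper protein that restrains inflammatory transcription, Fkbp5 a chaperone partner that lowers the receptor's affinity for hormone, Sgk1 a kinase that regulates ion channels, and Zbtb16 and Klf9 transcription factors. Mt1 and Mt2 encode metallothioneins, which bind zinc and copper and answer to metals and oxidants as well as to glucocorticoids, and several of these genes also follow the daily rhythm of the hormone.

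Promoter windows of 250 bases before an annotated start were read from RefSeq (GRCm38.p6) for 6 of the 8 members, 13 windows in all. Both strands were searched for the full glucocorticoid response element, AGAACA followed by any 3 bases and TGTTCT, and for its single arm AGAACA, which is part of the full element. The full element was in 1 of the 13 windows, at 1 of the 6 annotated starts of Sgk1, and in 3 of 32851 mouse promoter windows of the same length (0.00913%). The single arm was in 4 of the 13 windows and in 16.1% of all windows. The E-box CACGTG, which clock factors bind, was in 2 of the 13, 1 of Sgk1 and that of Fkbp5, and in 6.02% of all. TATAAA was in 2 of the 13 and in 12.4% of all. The core of the metal response element, TGCNCNC, was in 6 of the 13 and in 44.4% of all, where the window of Mt2 held it 5 times and 0.344% of all windows held it at least as often. All 250 bases of that window lie in an exon of an antisense gene of the GENCODE M21 annotation, which also overlaps the start of Mt2, and the sources used here do not say whether the counting used strand. A match describes these letters only. Shown are the Sgk1 window with the full element, the window of the next Sgk1 start downstream, which held neither, and the parts outside exons of the windows at the outermost starts of Tsc22d3, the gene with the clearest difference between groups. Capitals mark AGAACA or its reverse complement.
Sgk1, chr10:21993640-21993889, plus strand: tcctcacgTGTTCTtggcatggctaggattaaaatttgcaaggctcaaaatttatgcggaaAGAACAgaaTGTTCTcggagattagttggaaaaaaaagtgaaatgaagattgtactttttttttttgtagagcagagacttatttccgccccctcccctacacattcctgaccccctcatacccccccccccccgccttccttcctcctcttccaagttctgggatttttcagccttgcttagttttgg
Sgk1, chr10:21994416-21994665, plus strand: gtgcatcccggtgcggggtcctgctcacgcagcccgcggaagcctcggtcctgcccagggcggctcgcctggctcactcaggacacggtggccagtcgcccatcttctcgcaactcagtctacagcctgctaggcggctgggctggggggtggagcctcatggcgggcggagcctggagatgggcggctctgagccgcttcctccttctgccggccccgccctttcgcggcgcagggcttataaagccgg
Tsc22d3, chrX:140600660-140600772, minus strand: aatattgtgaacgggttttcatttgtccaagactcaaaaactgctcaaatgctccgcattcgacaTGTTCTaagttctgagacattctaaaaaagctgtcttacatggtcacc
Tsc22d3, chrX:140542669-140542845, minus strand: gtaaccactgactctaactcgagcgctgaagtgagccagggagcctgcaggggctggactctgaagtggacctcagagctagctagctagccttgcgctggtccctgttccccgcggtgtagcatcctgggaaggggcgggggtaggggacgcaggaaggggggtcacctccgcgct
In the first line the full element begins 189 bases before the start, and the E-box overlaps the first run of capitals. The arm of Tsc22d3 stands 185 bases before the RefSeq start of that window. The gene tables give 1 count per gene and do not say from which start a transcript came. The windows of Fkbp5 and Klf9 held neither the full element nor the arm. In GRCm38, by the GENCODE M21 annotation, Sgk1 spans chr10:21882184-21999903 and Tsc22d3 chrX:140539528-140600659, while Mt2 and Mt1 stand 5513 bases apart on the plus strand of chromosome 8.

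After filtering, 37175 of 47319 cell barcodes were kept, between 5583 and 9506 a library, with medians between 3367 and 4533 unique molecular identifiers (UMIs) per cell. Each cell was put in a lineage where it held at least 3 of the 10 markers of that lineage and 2 times as many as of any other, which placed 33920 cells. Endothelial cells (2138 to 3246 per library), fibroblasts (1368 to 3167), monocytes and macrophages (502 to 1505), T cells (96 to 2209) and B cells (116 to 377) had at least 50 cells in every library and were tested. Mural cells, neutrophils, natural killer (NK) cells, Schwann cells and dendritic cells had fewer, and only their levels are given, dendritic cells as a pool of 53 cells with 1 in control replicate 2. Of the kept barcodes, 736 occurred in more than 1 library (1480 cells). Xist was counted in every library (645 to 773 CPM), and 4 Y-linked genes had 1 UMI in all, so the groups did not differ in sex by these genes. The targeted genes were read in T cells. Ctla4 was at 429 and 73.1 CPM there in control and at 149.7, 645 and 541 CPM in disease, without separating the groups, and Pdcd1 was counted in every library (60.9 to 1063 CPM) although all genotypes lack it. Counts per gene do not show which part of a transcript was read, so neither gene checks the labels. Levels are given as CPM, the UMIs of a gene scaled by the total of all summed cells of that lineage and library. They are compared for 1 gene between lineages, not between genes.

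Nr3c1 was detected in every lineage. Its mean level was highest in T cells, at 215 ± 59.3 CPM (SD, n = 5 libraries), and 3.81 times higher there than in B cells, the lowest, at 56.5 ± 18.0 CPM. The step from T cells to fibroblasts (152 ± 31.8 CPM) was larger than the spread over libraries, while from fibroblasts through endothelial cells (130.1 ± 15.2 CPM) and macrophages (115 ± 40.7 CPM) to B cells no neighbour in the order differed from the next by more than the larger SD. In control replicate 2, however, T cells (129 CPM on 53 UMIs) were below fibroblasts (199.6 CPM), macrophages (183 CPM) and endothelial cells (155 CPM). They were above these lineages in each other library.

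Tsc22d3 followed another order. It was highest in B cells, at 889 ± 163 CPM, with neutrophils next at 659 ± 157 CPM, a gap larger than the spread. From neutrophils down to fibroblasts (446 ± 139 CPM), macrophages (445 ± 121 CPM), T cells (367 ± 57.1 CPM), endothelial cells (299 ± 105 CPM) and mural cells (277 ± 107 CPM), no neighbour differed beyond its spread. B cells thus held the highest mean level of Tsc22d3 and the lowest of Nr3c1.

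Fkbp5 was counted in all lineages, at 22.4 ± 5.14 CPM in fibroblasts, 21.6 ± 8.67 CPM in macrophages, 11.7 ± 4.44 CPM in T cells and 8.05 ± 2.43 CPM in endothelial cells. Of the steps in its order, only that from macrophages to T cells was larger than the spread. In neutrophils, NK, mural and Schwann cells it rested on 1 to 6 UMIs over all libraries.

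Sgk1 was an endothelial gene in this tissue: 1044 ± 196 CPM in endothelial cells, 243 ± 83.7 CPM in mural cells, the next in order, and 227 ± 19.7 CPM in fibroblasts. Its endothelial level was 1057 and 786 CPM in the control libraries and 925, 1285 and 1169 CPM in the disease libraries, so the lowest endothelial library was above the highest library of any other lineage (335 CPM). It fell in the order of mean level to 51.7 ± 24.1 CPM in B cells, 20.2 times lower than in endothelial cells. Within the endothelium, by marker UMIs, capillary cells (12233 cells) had 1083 ± 206 CPM and arterial cells (283 cells) 719 ± 142 CPM. Endocardial cells (121 cells) had 398 ± 140.0 CPM, venous cells (78 cells) 453 ± 212 CPM and lymphatic cells (68 cells) 466 ± 183 CPM. Capillary cells were above arterial cells in each library.

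Klf9 was higher in the stroma and vessels than in leukocytes, and Zbtb16 was highest in fibroblasts. Zbtb16 was at 76.3 ± 21.1 CPM in fibroblasts against 30.0 ± 14.0 CPM in endothelial cells, a gap larger than the spread. Below that, mural cells (27.3 ± 10.8 CPM), neutrophils (26.1 ± 22.1 CPM) and macrophages (23.3 ± 9.01 CPM) did not differ from their neighbours beyond it. It was at 4.61 ± 3.61 CPM in T cells, and B cells held 3 UMIs, all in control replicate 2, where the other libraries' counts of 0 allow levels up to 3.24 to 7.58 CPM (3 UMIs, counting error only). The pooled dendritic cells had no UMI of Zbtb16 or Klf9, which allows up to 3.49 CPM. Klf9 was at 387 ± 107 CPM in mural cells, 380.2 ± 156 CPM in Schwann cells, 312 ± 49.1 CPM in fibroblasts and 216 ± 26.7 CPM in endothelial cells. The step from endothelial cells to macrophages (49.2 ± 19.2 CPM) was larger than the spread, and T cells (17.2 ± 3.98 CPM) and B cells (11.2 ± 5.44 CPM) closed the order.

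Mt1 was high in 4 lineages and low in most others. It was at 2473 ± 473 CPM in mural cells, 1919 ± 435 CPM in macrophages, 1714 ± 384 CPM in fibroblasts and 1406 ± 501 CPM in Schwann cells. All other tested or listed lineages were at or below 82.1 ± 57.7 CPM, the level of T cells, apart from the pooled dendritic cells, where the 5 libraries ranged from 161 to 1013 CPM. Mt2 shared the order only in part: fibroblasts were first, at 281 ± 87.4 CPM, Schwann cells had 225 ± 86.8 CPM, mural cells 149 ± 29.6 CPM and macrophages 74.8 ± 27.7 CPM, and the other lineages were at or below 9.80 CPM on average.

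**Figure D1:**
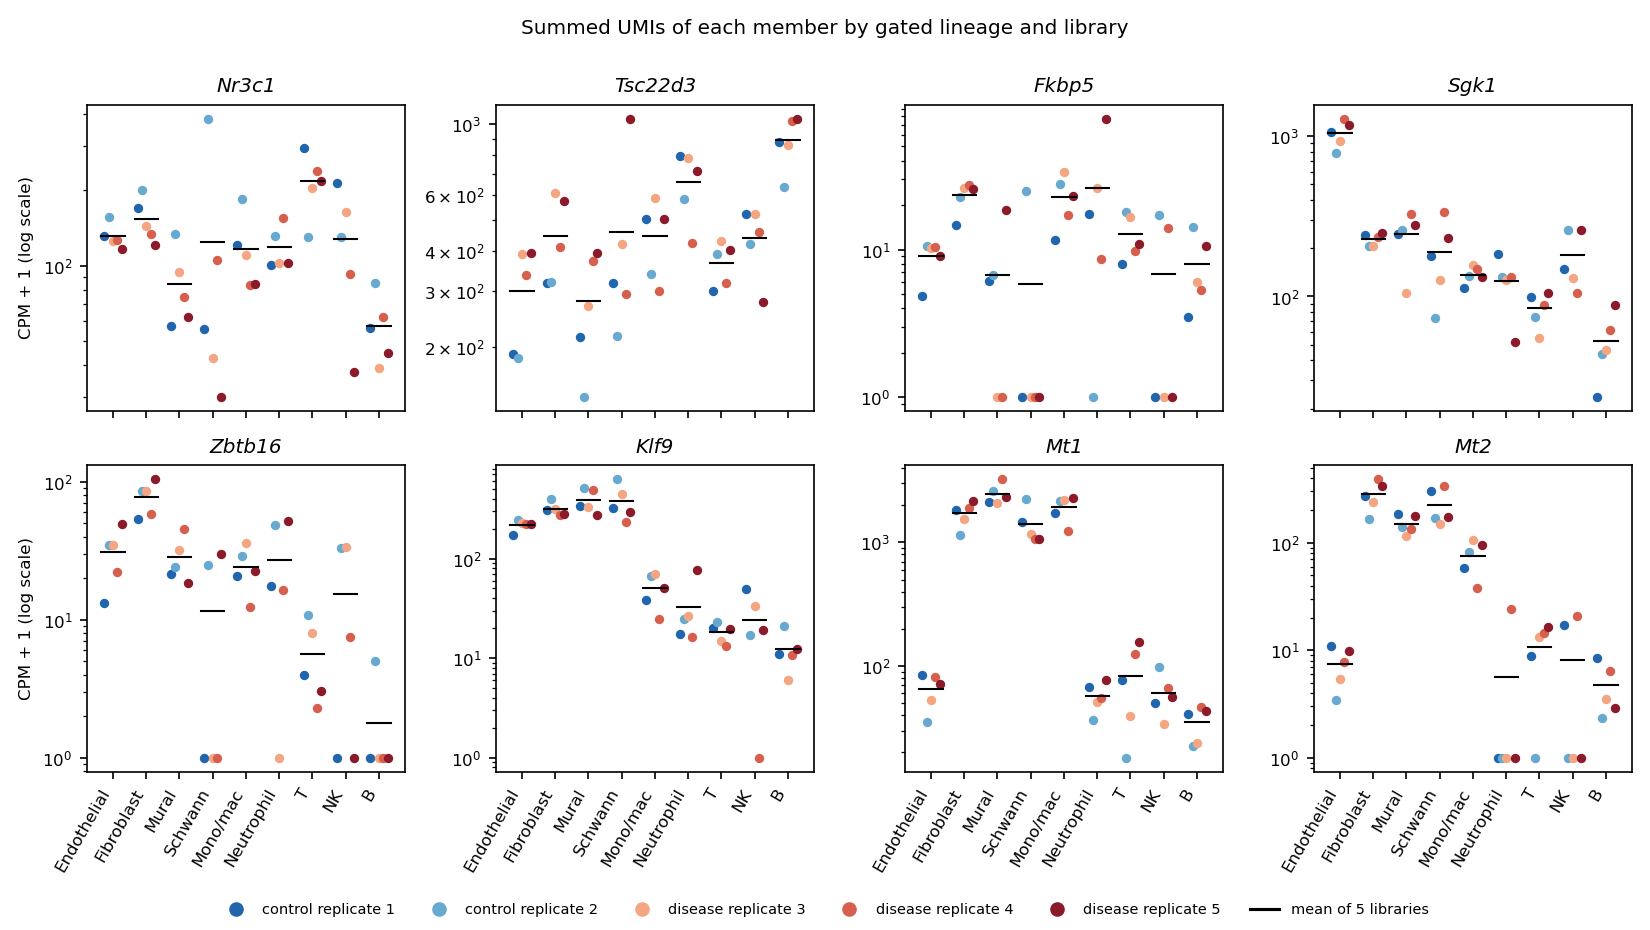
Levels of the 8 members by gated lineage, on a log axis of CPM + 1. Each point is 1 library (blue, control; red, disease) and each black line the mean of 5 libraries. Sgk1 stands apart in endothelial cells, Mt1 and Mt2 are high in fibroblasts, mural cells, Schwann cells and macrophages, and points at the foot of a panel are libraries with no UMI.

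The ratio of the paired metallothionein transcripts set macrophages apart from fibroblasts. Macrophages of the control libraries held 30.3 and 26.9 Mt1 UMIs per Mt2 UMI, and those of disease 20.7, 33.3 and 24.2. Fibroblasts held 6.73 and 7.03 in control and 6.37, 4.88 and 6.33 in disease. The ranges did not overlap, and the ratio was higher in macrophages in each of the 5 libraries. Mural cells lay between them (11.5 to 24.3) and overlapped macrophages, while endothelial cells had 7.90 to 14.0 and Schwann cells 3.19 to 13.4. Control and disease libraries overlapped in the ratio of macrophages. In fibroblasts the disease libraries (4.88 to 6.37) lay below the control libraries (6.73 and 7.03), a difference that was not tested.

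**Figure D2:**
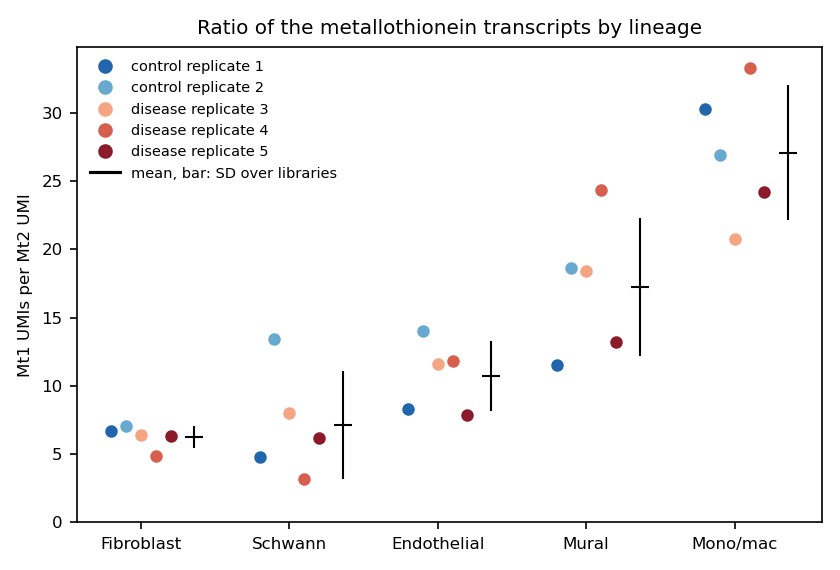
Mt1 UMIs per Mt2 UMI in the 5 lineages with at least 5 Mt2 UMIs in every library. Points are libraries and bars the mean with its SD over 5 libraries. Macrophages (20.7 to 33.3) do not overlap fibroblasts (4.88 to 7.03).

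The low metallothionein levels were set beside the levels of fibroblast markers in the same cells. In B cells Mt1 was at 1.49 to 2.39% of its fibroblast level, beside 0.781 to 1.75% for the 4 fibroblast markers kept out of the gate (Gsn, Serping1, Mfap5, Pcolce), which B cells should lack. In endothelial cells Mt1 was at 2.96 to 4.53% and those markers at 0.691 to 2.15%, and in T cells Mt1 was at 1.48 to 7.23% and the markers at 0.461 to 0.931%. The sum of these markers in fibroblasts, on which their percentages rest, was itself lower in disease replicates 4 and 5 (18826 and 26576 CPM) than in the other 3 libraries (46434 to 48105 CPM). The markers of the fibroblast gate itself were at 1.28 to 2.05% of their fibroblast level in B cells. There they were above Mt1 in disease replicate 3 (1.79% against 1.49%) and below it in the other libraries. In endothelial cells the gate markers were at 1.22 to 2.40% and in T cells at 0.665 to 1.36%, below Mt1 in each library. Mt2 was at 0.559 to 2.76% of its fibroblast level in B cells, 1.48 to 3.67% in endothelial cells and 0 to 5.07% in T cells. Macrophages, which hold as much Mt1 as fibroblasts, are not compared in this way here, and the part of free RNA in these low levels was not tested.

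Across single cells, Mt1 and Mt2 went together in fibroblasts and macrophages. After each cell was thinned to 1000 UMIs, the rank correlation of Mt1 with Mt2 had a median over 5 libraries of 0.34 (0.258 to 0.362) in fibroblasts, over 1348 to 3160 cells a library, and of 0.208 (0.164 to 0.237) in macrophages, over 474 to 1438 cells. In endothelial cells the median was 0.01 (-0.005 to 0.048), over 1884 to 3037 cells, and over the 3 libraries that gave a value it was 0.032 in T cells and -0.01 in B cells. Among other pairs of members with a value in all 5 libraries, the 102 medians within a lineage ran from -0.066 to 0.057. Cells of a library share its depth and composition, and in counts this sparse the weak values are no finding.

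Disease and control were compared on the summed counts of each lineage with edgeR's quasi-likelihood test, 2 libraries against 3, with Benjamini-Hochberg adjustment over all genes tested in that lineage. Nothing in the sources says how far the libraries of a group are independent, so p-values measure only the spread between these libraries, which may be technical. In endothelial cells 1 of the 8 members passed an adjusted p of 0.05, Tsc22d3, which was higher in disease. Of 12589 genes 12.3% passed there in either direction, 0.35% as higher and 11.9% as lower. No member passed in fibroblasts (13% of 13346 genes), macrophages (6.82% of 11054), T cells (5.17% of 9753) or all kept cells (6.38% of 16149), and none of the 4 tested in B cells (9.57% of 5047). Genes called higher in disease made up 0.39% in fibroblasts, 0.0452% in macrophages, 0.0103% in T cells, 0.357% in B cells and 0.031% in all cells, and genes called lower 12.6%, 6.78%, 5.16%, 9.21% and 6.35%. An unadjusted p under 0.05 was reached by 3 members in fibroblasts (28.5% of genes), 1 in macrophages (18.7%), 0 in T cells (15.5%), 2 in B cells (24%), 2 in endothelial cells (24.9%) and 1 in all cells (16.1%). DESeq2 called 2 members in fibroblasts, Nr3c1 lower and Tsc22d3 higher, Tsc22d3 alone in endothelial cells and 0 in the other fits. Of all genes with an adjusted p it called 14.2% in fibroblasts (1.28% higher, 12.9% lower), 13.1% in endothelial cells (0.883% higher, 12.2% lower), 6.96% in macrophages, 4.77% in T cells, 4.51% in B cells and 9.48% in all cells. The median change of the 8 members on the log2 scale was 0.18 in endothelial cells, 0.25 in fibroblasts, 0.15 in macrophages, 0.06 in T cells and 0.15 in all cells, beside medians of 0, -0.01, 0, 0.03 and 0.02 over all genes tested. For the 4 members tested in B cells it was 0.47, beside 0.05.

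The receptor was lower in disease in several lineages without passing the test. Nr3c1 stood at 168 and 199.6 CPM in control fibroblasts and at 143, 132 and 119 CPM in those of disease. The groups did not overlap, and on the log2 scale disease differed by -0.52 (SE 0.13, adjusted p = 0.0558 in edgeR). In macrophages it was at 119 and 183 CPM in control against 109, 82.6 and 83.8 CPM in disease, with -0.59 on the log2 scale (SE 0.22, adjusted p = 0.201 in edgeR). In endothelial cells control had 129.8 and 155 CPM and disease 125, 125 and 115 CPM (log2 fold change -0.29, adjusted p = 0.191 in edgeR). Disease was below control without overlap in these 3 lineages, as were 25.4% of the genes tested in fibroblasts, 23.9% in macrophages and 24% in endothelial cells. In T cells, where the mean level of the receptor was highest, the groups overlapped: 293 and 129 CPM against 202, 238 and 216 CPM (log2 fold change 0.05). In all kept cells the levels were 155 and 174 CPM against 129, 141 and 119.9 CPM (log2 fold change -0.29, adjusted p = 0.499 in edgeR), without overlap, as for 21.5% of genes.

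Tsc22d3 was higher in disease in both large lineages of the vessel wall and stroma. Endothelial cells had 189.6 and 184 CPM in control and 391, 336 and 393 CPM in disease. All 3 disease libraries were above both control libraries, as for 26.2% of genes tested, and the fold change was 1.91 (log2 0.93, SE 0.12, adjusted p = 0.00522 in edgeR). Without control replicate 2 the log2 fold change was 0.91 and the adjusted p 0.0618, and leaving out each other library kept the call. The change was as large in capillary cells alone, at 0.95 on the log2 scale (adjusted p = 0.00403 in edgeR). Their level was 186 and 184 CPM in control and 388, 340.2 and 396 CPM in disease. In arterial cells it was 197 and 151 CPM in control and 448, 213 and 322 CPM in disease, on 326 UMIs in all. Venous cells had 179 and 57.6 CPM in control, the latter on 1 UMI, and 639.7, 429 and 602 CPM in disease. Endocardial cells overlapped, with 296 and 270.2 CPM in control and 563, 267 and 382 CPM in disease on 198 UMIs, as did lymphatic cells, with 323 and 349.8 CPM against 256, 592 and 535 CPM on 118 UMIs. These 4 small sets of cells were not tested. The 4 endothelial markers kept out of the gate (Fabp4, Cav1, Esam and Ly6c1), all detected, also differed without overlap in gated endothelial cells: they summed to 31519 and 29793 CPM in control and to 37369, 43206 and 37498 CPM in disease. The 10 markers of the endothelial gate overlapped, at 8027 and 8103 CPM in control and 8072, 8704 and 8523 CPM in disease. The 6 cardiomyocyte genes summed to 1067 to 1141 CPM in control and 755 to 1079 CPM in disease. Their part in the value of Tsc22d3 was not tested.

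Fibroblasts had 316 and 319 CPM of Tsc22d3 in control and 609, 413 and 573 CPM in disease. The groups did not overlap, with disease above, as for 24.8% of genes tested, and disease replicate 4 was the lowest of its group in both lineages. The log2 fold change was 0.71 (SE 0.20) with an edgeR adjusted p of 0.0788. It passed with DESeq2 (adjusted p = 0.0119), with the stricter gate (0.0413) and without disease replicate 4 (log2 fold change 0.85, adjusted p = 0.00366). The same 4 endothelial markers summed to 402 and 289.8 CPM in the fibroblasts of control and to 493, 1182 and 756 CPM in those of disease. The 10 markers of the endothelial gate overlapped there, at 247 and 248 CPM in control and 224, 272 and 277 CPM in disease. The 4 fibroblast markers kept out of the gate, all detected, summed to 46881 and 48105 CPM in control and to 46434, 18826 and 26576 CPM in disease. The 10 markers of the fibroblast gate went the other way, with 27870 and 28226 CPM in control and 32113, 34781 and 32739 CPM in disease. The part of these sums in the value of Tsc22d3 was not tested. Over all kept cells Tsc22d3 was at 321 and 273 CPM in control and 509, 354 and 484 CPM in disease (log2 fold change 0.62, adjusted p = 0.184 in edgeR), above control in each library, as for 14.9% of genes.

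In leukocytes the gene did not separate the groups. Macrophages had 502 and 338 CPM in control and 584, 298 and 503 CPM in disease (log2 fold change 0.22, SE 0.32), and T cells had 298 and 389.9 CPM in control and 429.9, 316 and 402 CPM in disease (0.17, SE 0.32). B cells, with the highest level, had 879 and 637 CPM in control and 862, 1025 and 1041 CPM in disease (0.47, SE 0.19, adjusted p = 0.183 in edgeR). Whether the change itself differed between lineages was tested in edgeR with a lineage by group term for 8 members and 6 pairs of lineages. Of the 48 tests 0 passed and 10 had an unadjusted p under 0.05: 3 of 8 between macrophages and endothelial cells (5.81% of all genes), 5 between T and endothelial cells (5.26%), 2 between T cells and fibroblasts (5.48%) and 0 between fibroblasts and endothelial cells (16.3%), macrophages and fibroblasts (5.94%) or T cells and macrophages (4.09%). After adjustment, 0.269% of all genes passed between fibroblasts and endothelial cells, 0.0293% between macrophages and endothelial cells, 0.00752% between T and endothelial cells, 0.0636% between macrophages and fibroblasts, 0.0214% between T cells and fibroblasts and 0.00878% between T cells and macrophages. For Tsc22d3 the log2 change in macrophages minus that in endothelial cells was -0.85 (SE 0.24, adjusted p = 0.718 in edgeR), and in T cells minus endothelial cells -0.92 (SE 0.31, adjusted p = 0.887). In fibroblasts minus endothelial cells it was -0.10 (SE 0.13, adjusted p = 0.775). The rise is therefore not shown to be particular to endothelial cells.

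**Figure D3:**
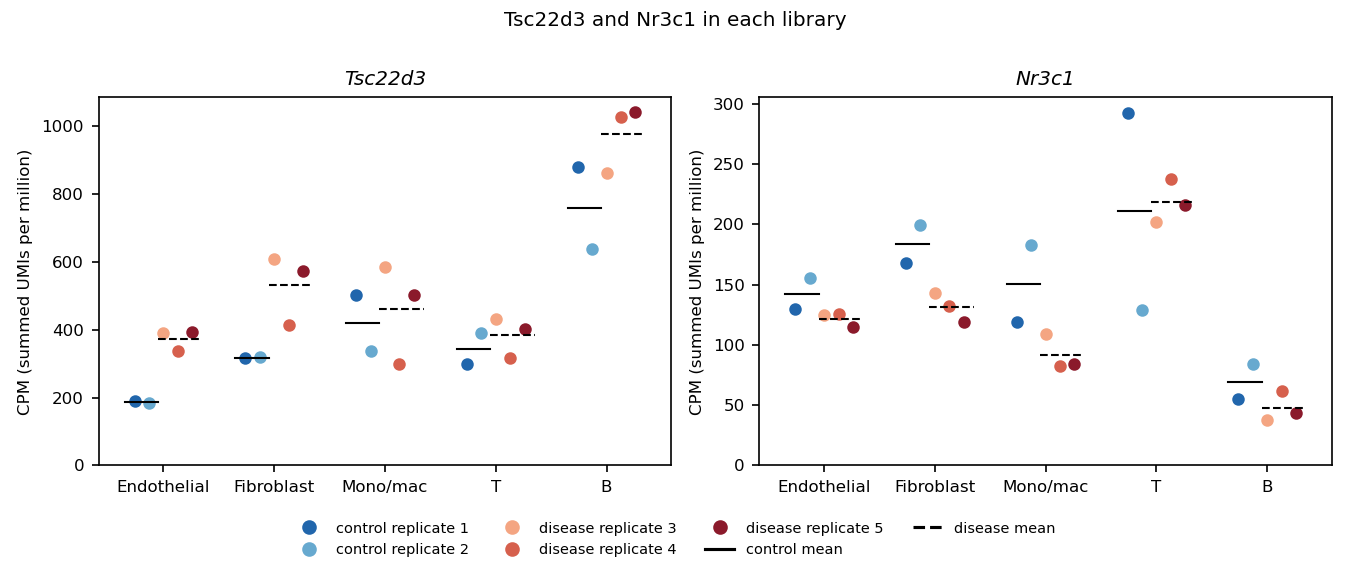
CPM of Tsc22d3 (left) and Nr3c1 (right) in each library of the 5 tested lineages. Solid lines are control means and dashed lines disease means. The disease libraries lie above the control libraries for Tsc22d3 in endothelial cells and fibroblasts, and below them for Nr3c1 in endothelial cells, fibroblasts and macrophages.

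Fkbp5 was higher in the fibroblasts of all 3 disease libraries, at 25.3, 26.6 and 24.6 CPM against 13.8 and 21.7 CPM in control, as were 24.8% of genes tested (log2 fold change 0.50, SE 0.20, adjusted p = 0.163 in edgeR). In endothelial cells control replicate 1 alone was low, at 3.85 CPM, and the other control library and the 3 disease libraries had 8.09 to 9.59 CPM. Its log2 fold change there was 0.36 in all libraries and -0.17 without control replicate 1. Macrophages overlapped, with 10.6 and 26.6 CPM in control and 32.7, 16.0 and 21.9 CPM in disease.

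Sgk1 did not separate the groups in the endothelium, where it is highest (log2 fold change 0.22, SE 0.19, adjusted p = 0.51 in edgeR), nor in fibroblasts (242 and 207 CPM against 205, 234 and 247 CPM). In B cells all 3 disease libraries (45.5, 60.6 and 87.4 CPM) were above both control libraries (22.6 and 42.6 CPM), on 9 to 56 UMIs a library, as for 13.8% of genes tested there. The log2 fold change was 1.03 (SE 0.40, adjusted p = 0.17 in edgeR).

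Neither Zbtb16 nor Klf9 passed the test in a lineage, and both overlapped between the groups in fibroblasts and endothelial cells. Zbtb16 in fibroblasts was at 52.8 and 84.2 CPM in control and 84.2, 57.1 and 103 CPM in disease, and in endothelial cells at 12.2 and 33.8 CPM in control and 34.0, 21.2 and 48.8 CPM in disease. In both lineages control replicate 1 was the lowest library, disease replicate 4 the lowest of its group and disease replicate 5 the highest. Klf9 in fibroblasts was at 304 and 394 CPM in control and 316, 270.0 and 278 CPM in disease (log2 fold change -0.31, SE 0.14, adjusted p = 0.224 in edgeR), and in endothelial cells at 171 and 239.9 CPM in control and 229, 219 and 223 CPM in disease (0.06, SE 0.16). In T cells it was at 19.2 and 21.9 CPM in control and 13.9, 12.2 and 18.5 CPM in disease (-0.45, adjusted p = 0.629 in edgeR), without overlap, as for 20.3% of genes tested.

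The metallothioneins overlapped between the groups in their high lineages. Mt1 in fibroblasts was at 1840.0 and 1150.4 CPM in control and 1531, 1899.8 and 2149 CPM in disease (log2 fold change 0.27, SE 0.26), and in macrophages at 1725 and 2171 CPM in control and 2187, 1241 and 2269 CPM in disease (0.07, SE 0.27). Mt2 in fibroblasts was at 273 and 164 CPM in control and 240.3, 389 and 339.6 CPM in disease (0.52, SE 0.31, adjusted p = 0.324 in edgeR). T cells had the largest estimates, with Mt1 at 76.1 and 17.1 CPM in control and 38.3, 124 and 155 CPM in disease (1.07, SE 0.65, adjusted p = 0.519 in edgeR). Mt2 in T cells was at 7.94 and 0 CPM in control and 12.2, 13.5 and 15.4 CPM in disease, on 0 to 134 UMIs a library, where the count of 0 allows up to 7.31 CPM (1.21, SE 0.61, adjusted p = 0.434 in edgeR), without overlap, as for 10.7% of genes tested. The 10 markers of the NK gate, among them Gzma, Prf1 and Eomes, were all detected in the T cell gate. They summed there to 849 and 39.0 CPM in control and to 273, 1277 and 801 CPM in disease, and were lowest in the same libraries as Mt1, control replicate 2 and then disease replicate 3. Whether T cells or NK cells held them was not tested. Their part in the metallothionein values was not tested.

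**Figure D4:**
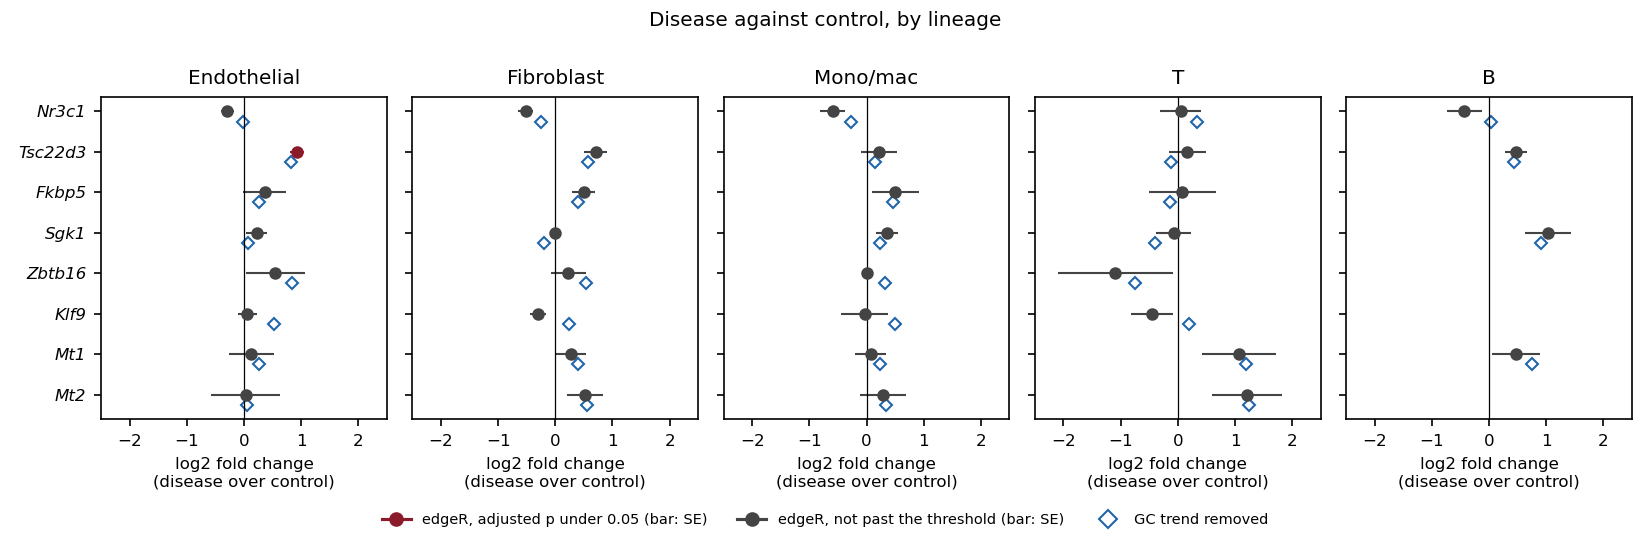
Log2 fold changes of the members, disease over control, in the 5 tested lineages, with bars of 1 SE. Red marks an edgeR adjusted p under 0.05 (Tsc22d3 in endothelial cells) and open blue diamonds the values after removal of a trend on base composition. The diamonds of Nr3c1 and Klf9 lie to the right of their filled points in every lineage where they were tested.

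Base composition at the start of the transcript moved with the fold changes. Across genes above 4 on the log2 CPM scale, the fold change and the GC percentage of the first 300 bases had a Spearman's rho between -0.432 and -0.495 in the 6 fits (4992 to 7228 genes, which are not independent replicates). The GC percentage was 55.3 for Tsc22d3, 56.7 for Fkbp5 and 52 for Sgk1, and 63.7 for Nr3c1, 64.3 for Zbtb16 and 72.7 for Klf9, with a median of 61.3 over genes in endothelial cells. Genes in the tenth that holds Tsc22d3 had a median log2 fold change of 0.15 in endothelial cells and 0.21 in fibroblasts, and the tenth nearest to Klf9 medians of -0.51 and -0.63. When a smooth trend on this percentage was removed, Tsc22d3 had a log2 fold change of 0.82 in endothelial cells (adjusted p = 0.0145 in edgeR) and 0.57 in fibroblasts (0.157). Nr3c1 moved to -0.02 in endothelial cells, -0.25 in fibroblasts and -0.27 in macrophages. Klf9 moved to 0.53 in endothelial cells, where it then passed (adjusted p = 0.0435 in edgeR), and from -0.31 to 0.24 in fibroblasts. With the trend removed, genes called higher made up 24.2% of calls in endothelial cells and 21% in fibroblasts, instead of 2.84% and 3%, and 29.1% instead of 3.73% in B cells. The median of all genes moved from 0 to 0.13 in macrophages and from 0.05 to 0.21 in B cells on the log2 scale. What sets the relation with base composition was not tested.

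Most of the other glucocorticoid-induced genes that passed the test fell, as did most genes called in these fits: 1504 of 1548 in endothelial cells and 1683 of 1735 in fibroblasts. Of all genes, 11.9% were called lower in endothelial cells, 12.6% in fibroblasts, 6.78% in macrophages, 5.16% in T cells and 9.21% in B cells. In the same order, 0.35%, 0.39%, 0.0452%, 0.0103% and 0.357% were called higher. Of 22 genes of the list tested in endothelial cells 1 rose and 6 fell, with a median log2 fold change of -0.13 beside 0 over all genes. Per1, which serves the clock as well, rose from 34.0 and 32.4 CPM to 69.8, 78.2 and 80.0 CPM (log2 fold change 1.13, adjusted p = 0.00155 in edgeR). Cebpd, a transcription factor of the acute phase, fell from 183 and 145 CPM to 14.8, 14.4 and 18.3 CPM (-3.43, adjusted p = 0.000361). The others that fell were Nfkbia (-1.73), an inhibitor of NF-kappaB, Rhob (-1.16), Errfi1 (-1.15), the phosphatase gene Dusp1 (-1) and Zfp36l2 (-0.61). The same 6 fell in fibroblasts, where 0 of 22 rose, from -3.75 for Cebpd to -0.63 for Zfp36l2. In macrophages 0 of 18 rose and 4 fell (Cebpd, Rhob, Errfi1 and Dusp1), in T cells 0 of 18 rose and 3 fell (Errfi1, Zfp36l2 and Cebpd), and in B cells 0 of 12 rose and 1 fell (Nfkbia). DESeq2 called 0 of the list as higher in these 4 lineages, and Per1 over all cells. The GC percentages of the 6 lay between 64.3 and 70.7, and several of them are also known as early response genes. With the GC trend removed, Cebpd, Errfi1 and Nfkbia still fell in endothelial cells and Dusp1, Rhob and Zfp36l2 no longer passed. Without that trend the calls of Dusp1, Errfi1 and Zfp36l2 were also lost in fibroblasts, those of all but Cebpd in macrophages, and every call of this list in T and B cells. Leaving out a library ended up to 3 of the 7 endothelial calls: Nfkbia and Rhob were lost without control replicate 1, control replicate 2 or disease replicate 5, Dusp1 without control replicate 1 and Zfp36l2 without control replicate 2 or disease replicate 5, while Per1, Cebpd and Errfi1 passed each time. In fibroblasts only Cebpd and Errfi1 passed each time. All 4 macrophage calls and the B cell call were lost without control replicate 1, control replicate 2 or disease replicate 5, and all 3 T cell calls without control replicate 1, disease replicate 4 or disease replicate 5. Cebpd in T cells was lost with DESeq2 too.

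Some genes known to respond to dissociation and stress fell. Of 13 immediate early and heat shock genes 0 rose in any of the 5 lineages, in edgeR or DESeq2 or at an unadjusted p under 0.05, and 2 fell in endothelial cells, 3 in fibroblasts, 3 in macrophages, 2 in T cells and 4 in B cells. In the same order, 11.9%, 12.6%, 6.78%, 5.16% and 9.21% of all genes were called lower. DESeq2 called 6 as lower in endothelial cells (12.2% of all genes), adding Egr1, Hspa1a, Junb and Jund, 5 in fibroblasts (12.9%), adding Egr1 and Junb, and 3 in each of the other lineages. The median log2 fold change was -0.59 in endothelial cells and -0.49 in fibroblasts, beside 0 and -0.01 over all genes. Dnajb1 fell in all 5, by -2.02 in endothelial cells and -1.92 in fibroblasts on the log2 scale, and Atf3 in endothelial cells (-2.30), fibroblasts (-2.32), macrophages (-2.20) and B cells (-3.07). In fibroblasts, macrophages, T cells and B cells Jund fell as well (-1.50 to -2.04), and in B cells Hspa1b (-1.69). Dnajb1 and Atf3 passed in endothelial cells and fibroblasts without each library in turn. Jund was lost in each of its lineages, and Dnajb1 in macrophages, T cells and B cells, without at least 1 library. In B cells Atf3 was at -1.35 without control replicate 1 (adjusted p = 0.11 in edgeR) and passed only without control replicate 2 (-3.87), and Hspa1b was lost without each library and with DESeq2. With the GC trend removed, Jund was lost in all 4 of its lineages, Dnajb1 in T cells and Atf3 and Hspa1b in B cells. Their part in the values of the members was not tested.

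The receptor's chaperones gave a mixed list. Fkbp4, a chaperone partner that competes with Fkbp5, fell in all 5 lineages (log2 fold change -1.60 in endothelial cells and -1.93 in fibroblasts), as did Ptges3, the co-chaperone p23 (-1.65 and -1.69). The GC percentages of this pair were 71.7 and 74. Stip1 rose in endothelial cells (0.53) and Abcb1b, a transporter that exports steroids, in fibroblasts (0.69), while Hsd11b2 fell in fibroblasts on at most 2.35 CPM in any library. The list had 3 of 13 genes past the threshold in endothelial cells and 4 of 14 in fibroblasts, with medians of 0.08 and 0.17, beside 12.3% and 13% of all genes and medians of 0 and -0.01. Fkbp4 and Ptges3 passed in these 2 lineages without each library in turn and with the GC trend removed. In macrophages, T cells and B cells each of them was lost without at least 1 library, both of them in T cells without disease replicate 4 or disease replicate 5. With the GC trend removed Fkbp4 was lost in T and B cells, Ptges3 in macrophages and T cells, and Stip1, Abcb1b and Hsd11b2 did not pass. Stip1 was lost without any library but disease replicate 4. Abcb1b was lost without each of the 5, and Hsd11b2 without either control library or disease replicate 5. Of the metal and oxidant genes 0 passed in any lineage in edgeR or DESeq2, and the lowest p belonged to Gclm in endothelial cells and in fibroblasts (log2 fold change -0.72 in both, adjusted p = 0.109 and 0.104 in edgeR). Slc39a14, a zinc importer, followed in endothelial cells (0.31, adjusted p = 0.172) and Slc30a1, a zinc exporter, in fibroblasts (0.34, adjusted p = 0.189). In the leukocytes the lowest p belonged to Hmox1 (0.47) and Mtf1 (0.42) in macrophages, Txnrd1 (-0.84) and Mtf1 (0.51) in T cells and Gclc (-0.89) and Hmox1 (0.16) in B cells. At an unadjusted p under 0.05 there were 3 of 9 in endothelial cells (24.9% of all genes), 1 of 9 in fibroblasts (28.5%) and 1 of 8 in T cells (15.5%). There were 0 in macrophages (18.7%) and B cells (24%).

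Clock genes changed in endothelial cells and fibroblasts. In endothelial cells 7 of 14 rose and 2 fell, beside 0.35% of all genes called higher and 11.9% called lower. The 14 had a median log2 fold change of 0.69, beside 0 over all genes. The genes that rose were Ciart (1.79), Hlf (1.76), Dbp (1.61), Per2 (1.45), Per1 (1.13), Tef (0.73) and Nr1d1 (0.66), and Arntl (-2.33) and Clock (-0.50), which drive the loop, fell. In fibroblasts 4 of 15 rose (Dbp, 1.68; Ciart, 1.26; Hlf, 0.76; Nr1d1, 0.69) and 4 fell (Cry1, -2.27; Arntl, -1.74; Npas2, -1.06; Cry2, -0.72). Of all genes tested in fibroblasts 0.39% were called higher and 12.6% lower. In macrophages 0 of 12 clock genes rose (0.0452% of all genes) and Arntl fell (-1.49, 6.78% of all genes called lower). In T and B cells 0 of 11 and 0 of 4 passed, beside 5.17% and 9.57% of all genes. Among clock genes the lowest p belonged to Arntl (-1.56) and Cry1 (-2) in T cells and to Clock (-0.77) and Arntl (-0.48) in B cells. At an unadjusted p under 0.05 there were 3 clock genes in T cells (15.5% of all genes) and 0 in B cells (24%). DESeq2 called 0 in both and Dbp as higher in macrophages. Arntl, Ciart, Dbp, Per1 and Per2 passed in endothelial cells whichever library was left out, whereas Clock was lost each time and Nr1d1, Tef and Hlf at least once. In fibroblasts Arntl, Cry1 and Dbp passed each time, and without control replicate 2 or disease replicate 5 only these 3 of the 8 did. Arntl in macrophages was lost without either control library or disease replicate 5. With the GC trend removed, Cry2 and Npas2 in fibroblasts were the only clock calls lost in these 3 lineages. The hour of collection is not given in the sources used here, so hour and genotype cannot be told apart. The rises of Dbp and Per1 in endothelial cells were known when these lists were drawn up and are no independent support.

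**Figure D5:**
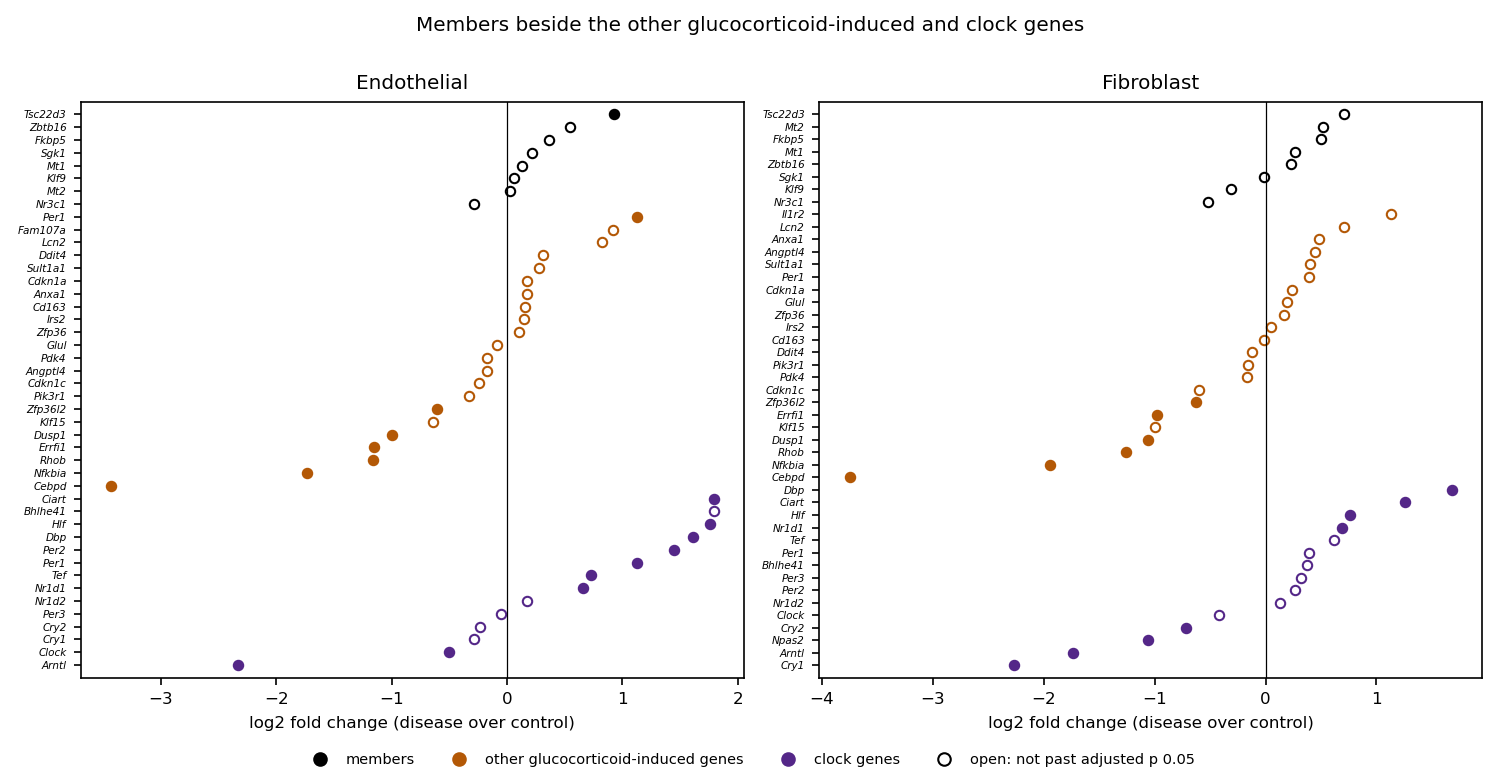
Log2 fold changes, disease over control, of the members (black), the other glucocorticoid-induced genes (orange) and the clock genes (purple) in endothelial cells and fibroblasts. Filled points passed an edgeR adjusted p of 0.05. In endothelial cells Tsc22d3 (0.93) and Per1 (1.13) are higher in disease, and Cebpd (-3.43) is at the far left. Per1 belongs to both lists and is drawn in both colours.

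Likeness over libraries was measured as Pearson's r of log2(CPM + 1), taken as the deviation of each library from its lineage's mean, over 25 lineage by library values that share 5 libraries. The difference between groups was not taken out, so genes that rose or fell together in disease resemble each other through it. The nearest of 5875 genes to Tsc22d3 were Dbp, the clock output gene (r = 0.764), Dnaja1 (0.73) and Nae1 (0.729). The rises of Tsc22d3 and Dbp were known beforehand, so their likeness is no independent support. The nearest to Nr3c1 were Ccdc50 (0.907), Sec31a (0.86) and Bicd2 (0.854), and to Sgk1 Frmd4a (0.863), Pdgfb (0.854) and Pip5k1a (0.832). Mt1 was nearest to Tceal9 (0.9), Ccl9 (0.886) and Rnf7 (0.88), Mt2 to Lgals1 (0.904), Maged2 (0.895) and Dcps (0.888), and the metallothioneins had r = 0.837 with each other. Fkbp5 was nearest to Clint1 (0.83), Tns1 (0.786) and Gsk3a (0.768), Zbtb16 to Chd3 (0.785), Tmem64 (0.783) and Nisch (0.779), and Klf9 to Dusp22 (0.847), Map4k2 (0.808) and Sptan1 (0.797). Fkbp5 and Zbtb16 had r = 0.713 and Klf9 and Zbtb16 r = 0.666, while Tsc22d3 had r = -0.445 with Nr3c1 and at most 0.234 with another member. Over the mean levels of the 5 lineages, the nearest gene was Mxi1 for Nr3c1 (0.994), Ube2d2a for Tsc22d3 (0.991), Ascc3 for Fkbp5 (0.984), Chmp5 for Sgk1 (0.999), Cd9 for Klf9 (1.0), Tmem159 for Zbtb16 (0.998), Cyp4v3 for Mt1 (0.993) and Tor1aip1 for Mt2 (0.997). With 5 points such values are reached easily and are given as a description.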

How the data were processed

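Single-cell libraries of 5 pooled heart digests were made with the 10x Genomics 5-prime V1.1 reagents, per the labels' protocols. Raw UMI counts, 1 per gene and barcode, are what the authors deposited, and the file headers name Cell Ranger 3.1.0. The submitters' processing notes name Cell Ranger 3, Seurat 3, GRCh38 and mm10 without saying what each was used for. The rule for calling cells is not given in the sources used here.

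Cells with at least 500 UMIs, 200 genes and at most 10% mitochondrial UMIs were kept, and 1137 doublets called by Scrublet in scanpy 1.11.5 (expected rate 0.8% per 1000 cells) were removed. The caller marked 5 barcodes (0.09%) in control replicate 2, beside 2.08 to 4.46% in the other libraries. It may therefore have failed there, which was not tested. Lineages were gated on 100 marker genes. Counts were summed per lineage and library, which gave 48613008 and 23699813 UMIs for all kept cells of control replicates 1 and 2 and 25824981, 46121066 and 34860376 UMIs for disease replicates 3, 4 and 5. They were tested in edgeR 4.0.16 (TMM, filterByExpr, quasi-likelihood F test; R 4.3.3), with a lineage by group term and libraries as blocks for differences between lineages. After the main fits the test was also tried on counts simulated with their dispersions, and the outcome is not given here. Each standard error was taken as the size of the change divided by the root of F. CPM are plain shares of the summed UMIs. Values printed for low genes rest on the UMIs named. Alternatives were DESeq2 1.42.0, its size factors in edgeR, no filter on low counts, 25% mitochondrial UMIs, doublets kept, a stricter gate (4 markers, at most 1 of another lineage), equal cell numbers, a loess trend on GC percentage removed as an offset, and each library left out.

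Listed genes are named where their adjusted p was under 0.05, and otherwise the pair with the lowest p. Ifi30, 1 of the listed markers, was not found by symbol. The members and lists were chosen with earlier results of these data known. Promoter sequences are from RefSeq, and Zbtb16 and Nr3c1 are not among those shown. No estimate of free RNA from empty droplets was made. The comparison of Mt1 in other lineages with macrophage markers is not reported here.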

Additional observations from a re-analysis of the deposited data

How the results depend on the processing

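Tsc22d3 in endothelial cells kept its direction and its side of the threshold under all 9 alternatives other than leaving out a library, between 0.82 and 0.98 on the log2 scale. Over the members and the called list genes, 826 such values kept direction and side, 56 no longer passed, 4 newly passed and 31 reversed. Every reversed member value had an adjusted p above 0.05 in the main fit, and the cause was not tested. With the GC trend removed, the log2 fold changes of Nr3c1, Sgk1 and Klf9 in all cells were 0.04, -0.12 and 0.23, of Klf9 0.24 in fibroblasts, 0.49 in macrophages and 0.19 in T cells, of Zbtb16 0.32 in macrophages, of Tsc22d3 and Fkbp5 -0.11 and -0.13 in T cells, and of Nr3c1 0.03 in B cells. With the stricter gate or capillary cells alone, Mt1 in endothelial cells was at -0.04 and -0.02, and with equal cell numbers or capillary cells Mt2 was at -0.04 and -0.07. Sgk1 in fibroblasts was at 0.03 with DESeq2 or its size factors and 0.01 with equal cell numbers, and in T cells at 0.03 (25% mitochondrial UMIs), 0.07 (stricter gate) and 0.01 (equal numbers). Zbtb16 in macrophages lay between 0 (no filter, doublets kept) and 0.09 (25% mitochondrial UMIs), at 0.03 with DESeq2's size factors and 0.05 with DESeq2 or equal numbers. Klf9 in macrophages was at 0.01 with DESeq2, 0.03 with the stricter gate and 0.02 with equal numbers. Nr3c1 in T cells was at -0.08 with the stricter gate and -0.13 with equal numbers, and the Tsc22d3 difference between T cells and macrophages at -0.04 with DESeq2's size factors.

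Counts of genes called moved by over 1.5 times as follows. In all cells DESeq2 called 1644 and the fit without the GC trend 505, against 1030. Without the filter 1324 were called in macrophages, 1024 in T cells and 1023 in B cells, against 754, 504 and 483, and without the GC trend 395, 187 and 227. With equal cell numbers 227 were called in T cells and 260 in B cells, and DESeq2 called 296 in B cells. The term between fibroblasts and endothelial cells called 22 genes with DESeq2's size factors, against 38.

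Leaving out each library gave 769 to 1547 genes called in endothelial cells, 800 to 1850 in fibroblasts, 216 to 1077 in macrophages, 0 to 454 in T cells, 42 to 485 in B cells and 123 to 1245 in all cells. The terms between lineages gave 3 to 156 (fibroblasts against endothelial cells), 0 to 69 (macrophages) and 2 to 131 (T cells), 0 to 77 and 5 to 229 (macrophages and T cells against fibroblasts) and 0 to 5 (T cells against macrophages). The members that reversed had these ranges of log2 fold change. Fkbp5 ran from -0.17 to 1.14 in endothelial cells, -0.03 to 1.16 in macrophages and -0.77 to 0.6 in T cells. Klf9 ran from -0.16 to 0.32 in endothelial cells and -0.36 to 0.34 in macrophages. Mt1 ran from -0.38 to 0.92 in endothelial cells, -0.05 to 0.68 in fibroblasts, -0.09 to 0.23 in macrophages and -0.19 to 0.59 in all cells, and Mt2 from -0.65 to 1.41 in endothelial cells and -0.04 to 0.91 in all cells. Nr3c1 in T cells ran from -0.38 to 0.71. Sgk1 ran from -0.14 to 0.14 in fibroblasts, -0.23 to 0.13 in T cells and -0.07 to 0.15 in all cells. Tsc22d3 ran from -0.09 to 0.62 in macrophages, -0.07 to 0.41 in T cells and, for the difference of the latter from the former, -0.47 to 0.71. Zbtb16 ran from -0.02 to 1.45 in endothelial cells, -0.05 to 0.57 in fibroblasts, -0.41 to 0.29 in macrophages and -0.14 to 0.52 in all cells.

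No paired analysis was possible because the groups share no replicate numbers. Without 1 control library the lone control is assumed to vary like the disease libraries. With 5 CPM added in place of 1, the 3 nearest genes of Zbtb16 by either measure shared 0 with those first found. The stricter gate left too few B cells in a library to be run. Depth limits Fkbp5, Zbtb16 and Mt2 in the small lineages.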
